A study of Mus musculus with 32 samples.

Results

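The data described here are the expression values of 10 genes of mitochondrial fatty acid oxidation, *Ppara*, *Cpt1a*, *Cpt2*, *Slc25a20*, *Acadvl*, *Acadl*, *Acadm*, *Hadha*, *Hadhb* and *Eci1*, in liver and in 3 fat depots of *Gpr146* knockout and wild-type mice. They were chosen by name, for their place in the pathway, and all 10 were found among the 24646 genes measured in every tissue. Earlier results of these data were known when the genes were chosen. The mice were male littermates on the C57BL/6J background, 20 weeks old, all fed a high-fat diet (HFD) for 3 months and fasted overnight before collection. The knockout (KO) was made with CRISPR/Cas9 and affected the whole body, so that a change arising within a tissue and one arising elsewhere in the animal cannot be told apart. Liver, the white fat of the epididymal (eWAT) and inguinal (iWAT) depots and brown fat (BAT) were each measured in 4 wild-type (WT) and 4 KO mice, with 1 array per mouse and tissue and 32 arrays in all. The question was whether the knockout moved these genes in the same direction in liver and in white fat.

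Long-chain fatty acids enter mitochondria bound to carnitine. *Cpt1a* encodes the carnitine palmitoyltransferase of the outer mitochondrial membrane, the controlled entry step that malonyl-CoA inhibits, *Slc25a20* the carrier that exchanges acylcarnitine for carnitine across the inner membrane, and *Cpt2* the transferase that returns the acyl group to coenzyme A inside. The acyl-CoA dehydrogenases of very long (*Acadvl*), long (*Acadl*) and medium (*Acadm*) chains then begin each round of β-oxidation, and the trifunctional protein, built from the *Hadha* and *Hadhb* products, carries out the later steps for long chains. *Eci1* encodes an enoyl-CoA isomerase that moves the double bonds of unsaturated fatty acids into the position the cycle needs. *Ppara* encodes PPARα, the nuclear receptor that binds fatty acids and, in fasting liver, drives transcription of many of these enzymes. Liver uses the pathway to make ketone bodies and brown fat to make heat, whereas white adipocytes mainly store and release fatty acids.

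The stretches of DNA just upstream of these genes are shown because all members lay lower in KO livers but on both sides in KO white fat. The 250 bases before the annotated start of 5 genes were taken from RefSeq (GRCm38.p6, all 10 members matched, the build of the arrays being not given in the sources used here), each read 5′ to 3′ on the strand of its gene. They are *Cpt1a* (chr19:3323051-3323300, plus strand) and *Eci1* (chr17:24426433-24426682, plus strand), which went opposite ways in eWAT, *Acadvl* (chr11:70015429-70015678, minus strand) and *Acadm* (chr3:153944644-153944893, minus strand), which with *Cpt1a* hold the hexamer recognised by many nuclear receptors, and *Hadhb* (chr5:30155003-30155252, plus strand), which lies head to head with *Hadha*. Capitals mark this hexamer, AGGTCA, which appears as TGACCT where it lies on the opposite strand.
Cpt1a: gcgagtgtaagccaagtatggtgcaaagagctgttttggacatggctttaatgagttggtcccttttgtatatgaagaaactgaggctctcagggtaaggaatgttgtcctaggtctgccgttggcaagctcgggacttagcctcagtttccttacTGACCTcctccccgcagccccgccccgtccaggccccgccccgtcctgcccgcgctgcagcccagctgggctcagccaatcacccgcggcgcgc
Eci1: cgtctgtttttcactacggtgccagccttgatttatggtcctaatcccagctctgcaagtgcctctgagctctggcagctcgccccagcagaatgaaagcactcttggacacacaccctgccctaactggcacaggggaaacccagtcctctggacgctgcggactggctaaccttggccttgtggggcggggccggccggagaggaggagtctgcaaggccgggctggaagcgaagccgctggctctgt
Acadvl: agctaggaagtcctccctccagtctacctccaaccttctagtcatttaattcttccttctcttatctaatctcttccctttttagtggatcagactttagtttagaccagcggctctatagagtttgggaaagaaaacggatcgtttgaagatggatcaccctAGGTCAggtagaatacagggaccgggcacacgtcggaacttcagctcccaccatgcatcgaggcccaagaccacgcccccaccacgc
Acadm: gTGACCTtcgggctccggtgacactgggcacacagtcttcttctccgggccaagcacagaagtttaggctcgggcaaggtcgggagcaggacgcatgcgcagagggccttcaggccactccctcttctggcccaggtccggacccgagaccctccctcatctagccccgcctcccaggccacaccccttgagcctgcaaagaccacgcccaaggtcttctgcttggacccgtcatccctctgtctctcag
Hadhb: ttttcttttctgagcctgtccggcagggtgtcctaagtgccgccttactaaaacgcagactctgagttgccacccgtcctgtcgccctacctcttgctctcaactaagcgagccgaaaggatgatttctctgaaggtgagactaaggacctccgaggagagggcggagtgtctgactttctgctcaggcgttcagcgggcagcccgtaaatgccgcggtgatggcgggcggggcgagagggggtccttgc
The hexamer began 94 bases before the start of *Cpt1a*, 87 before that of *Acadvl* and 249 before that of *Acadm*. It was thus found, on either strand, in 3 of the 10 members' windows, against 14.0% of the 32851 windows in the reference. The element bound by PPARα with its partner RXR, known as DR1, consists of that hexamer written 2 times in the same direction with 1 base between, so each DR1 also contains the hexamer. No member window held it (0 of 10, against 0.0335% of all windows), nor a looser form with the fourth base of each hexamer free (0 of 10, against 0.338%), nor the hexamer preceded by TNA, the extended form recognised by ERR receptors (0 of 10, against 1.14%). These letters were searched only in the 250 bases before each start. At such low shares, 10 windows are too few for an absence to set the members apart from other genes. The *Acadm* hexamer lies at the far edge of its window, so a second hexamer upstream of it would have been missed. Whether the members hold these elements elsewhere was not tested. The starts of *Hadha* and *Hadhb* lie 272 bases apart on opposite strands, and their windows share 228 bases.

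Each value is a log2 expression value, so that 1 unit is a doubling, and the authors had normalized the arrays of each tissue together but the tissues apart. Array medians lay between 2.82 in the dimmest BAT array and 3.73 in the brightest iWAT array. *Gpr146* was lower in every KO array than in every WT array of its tissue, with log2 fold changes of -1.77 in liver, -1.53 in eWAT, -1.55 in iWAT and -1.16 in BAT. The titles of the KO livers name both genotypes, but their other labels say KO and their *Gpr146* values lay between 4.26 and 4.63, below the 6.17 to 6.32 of the WT livers. Each tissue held its own defining markers, with none of 8 hepatocyte genes below the median of the liver table, none of 8 adipocyte genes below that of any fat depot and none of 9 brown fat genes below that of BAT. Some arrays stood apart. In iWAT, the mean of 8 B cell genes was 7.68 and 7.66 in WT replicates 1 and 2, 7.30 in KO replicate 2 and 5.56 in KO replicate 4, against 3.06 to 3.52 in the other 4. The inguinal depot surrounds a lymph node. In BAT, the mean of 12 skeletal muscle genes was 5.69 and 6.57 in WT replicates 2 and 3 and 6.83 in KO replicate 2, against 2.74 to 3.40 in the other 5. In eWAT, the mean of 10 macrophage genes was 8.10 in KO replicate 2, near the 8.45 to 8.65 of the WT arrays, and 5.68 to 6.54 in the other KO arrays. *C130050O18Rik*, a gene next to *Gpr146* that was higher in every KO array, read 6.45, 6.98 and 5.85 in WT replicate 1 of eWAT, iWAT and BAT, where the other WT arrays read 3.06 to 4.29. Leaving out that WT replicate changed the number of members past the threshold in none of the 3 fat depots. The differences of the knockout effect between tissues, described below, did depend on it. Without WT replicate 1 in both tissues, the count fell from 6 to 2 between eWAT and liver (4.67% of all genes). It fell from 3 to 0 between eWAT and BAT (2.61%) and from 1 to 0 between iWAT and liver (0.0203%). Falls of this kind also followed when other replicates were left out.

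Across the tissues, the wild-type level of 9 of the 10 members was highest in BAT, and that of *Cpt1a* was highest in liver and lowest in BAT. These orders were read from tables normalized apart and were not tested. The mean of *Cpt1a* was 9.74 ± 0.14 in liver, 8.21 ± 0.06 in eWAT, 7.33 ± 0.22 in iWAT and 6.12 ± 0.70 in BAT (SD, n = 4 mice each), and no neighbours in that order overlapped. *Ppara* measured 7.79 ± 0.12 in BAT and 7.47 ± 0.12 in liver but 3.51 ± 0.19 in iWAT and 3.08 ± 0.13 in eWAT (SD, n = 4 each), close to the array medians of those depots. Within white fat, the WT values of *Slc25a20*, *Acadvl*, *Acadl*, *Acadm* and *Eci1* overlapped between eWAT and iWAT. The value of *Hadhb* was dim outside BAT, lying above its array's median in 2 of 8 liver arrays and in none of the eWAT or iWAT arrays. Its level in these 3 tissues was thus not shown to be above background. The isoform *Cpt1b*, known from muscle and brown fat, was not matched by name and is not analysed here.

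In liver, all 10 members were lower by sign in KO than in WT mice, where 46.9% of all genes were, by small steps, and *Eci1* was the member that passed the test. The 10 include *Hadhb*, which was not shown to be above background in liver. Groups were tested with limma, which fits each gene separately and borrows strength across genes for the variance, and a gene was called at a Benjamini-Hochberg adjusted p below 0.05 over the 24646 genes. *Eci1* measured 7.35, 7.23, 7.50 and 7.56 in WT livers and 6.92, 7.04, 6.87 and 6.92 in KO livers. Every KO liver was below every WT liver, and the mean fell by 27.8%, or -0.47 on the log2 scale (standard error 0.09, adjusted p = 0.0396). This 1 member of 10 compares with 0.661% of all genes past the threshold in liver (0.499% lower in KO). The call rested on several mice, as the adjusted p was 0.0688, 0.131 and 0.101 without WT replicates 1, 3 and 4 and 0.116, 0.0788 and 0.115 without KO replicates 1, 3 and 4, leaving 0 members past the threshold each time.

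The other 9 members lay lower in KO livers without passing the adjusted test. Their log2 fold changes ran from -0.37 for *Slc25a20* (standard error 0.11, adjusted p = 0.176) to -0.10 for *Cpt1a* (0.13, 0.798), and the median over the 10 was -0.27 against 0.01 over all genes. Before adjustment, 8 members had a p below 0.05, all lower in KO, where 7.48% of all genes did so, and 5 members lay lower in all 4 KO livers than in all 4 WT livers, where 4.16% of genes did so. The members share a pathway and are not independent of each other.

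The 3 acyl-CoA dehydrogenases illustrate the size of the shift. *Acadl* measured 9.29, 9.32, 9.34 and 9.29 in WT livers and 8.99, 9.16, 9.02 and 9.05 in KO livers, so that the groups did not overlap (log2 fold change -0.26, adjusted p = 0.132). *Acadm* lay at 9.81 to 10.03 in WT and 9.51 to 9.80 in KO livers (-0.31, 0.135), likewise without overlap. *Acadvl* overlapped, since KO replicate 4 at 8.20 was above WT replicate 4 at 8.18 (-0.17, 0.352). Of the trifunctional protein, *Hadha* lay at 9.51 to 9.73 in WT and 9.31 to 9.43 in KO livers (-0.27, 0.140), and the dim *Hadhb* at 2.82 to 3.15 and 2.48 to 2.83 (-0.29, 0.255).

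At the carnitine shuttle, *Cpt2* separated the liver groups and *Cpt1a* did not. *Cpt2* was 8.13, 8.02, 8.34 and 8.20 in WT and 7.80, 7.91, 7.98 and 7.89 in KO livers, without overlap (-0.28, standard error 0.08, adjusted p = 0.178). *Cpt1a*, in contrast, was 9.56, 9.70, 9.87 and 9.84 in WT and 9.47, 10.01, 9.45 and 9.65 in KO livers, with KO replicate 2 the highest of all 8. Its change had a 95% confidence interval from -0.37 to 0.18. *Ppara* also overlapped, at 7.34 to 7.62 in WT and 7.17 to 7.51 in KO livers (-0.13, interval -0.34 to 0.08). A p that misses the threshold does not show that these genes were the same in both groups.

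**Figure D1:**
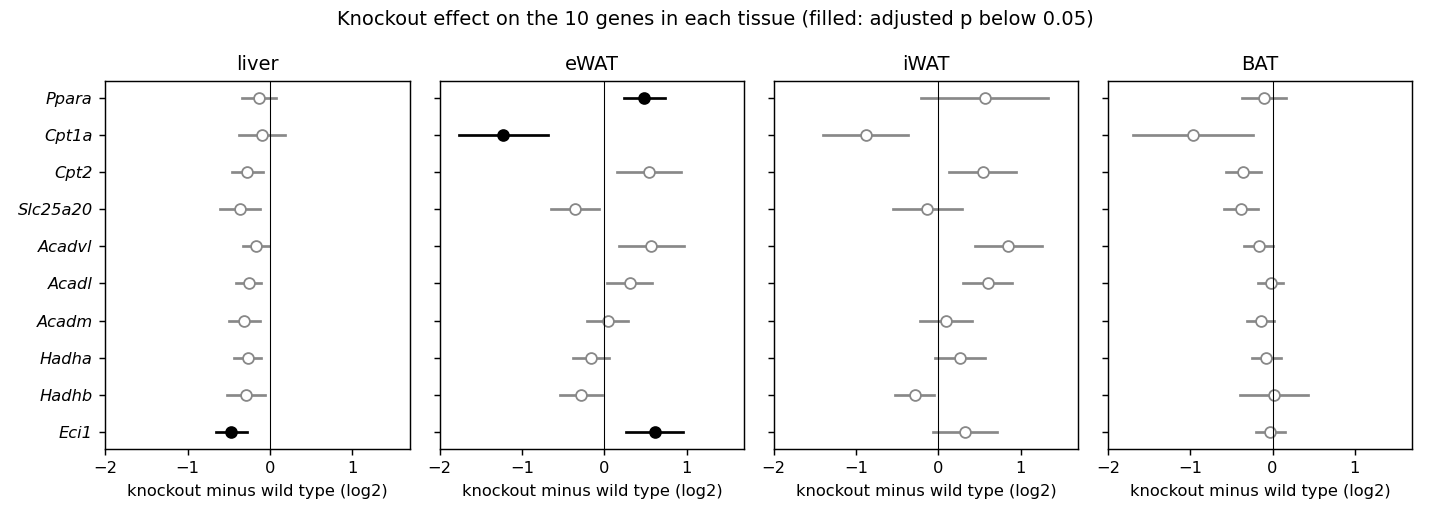
Change of each of the 10 genes in knockout against wild-type mice (x axis, log2; points, limma estimates; lines, 95% confidence intervals; 4 mice per genotype) in liver, eWAT, iWAT and BAT. In liver all 10 points lie left of 0 and *Eci1* is filled, in eWAT *Cpt1a* lies at -1.22 and *Ppara* and *Eci1* at 0.49 and 0.61, and in iWAT and BAT no point is filled.

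PPARα targets outside the pathway included larger falls in liver. Of 17 known targets outside mitochondrial β-oxidation, 16 lay lower in KO livers, as did 46.9% of all genes, with a median of -0.39. Past the threshold 3 fell, against 0.499% of all genes. These were *Vnn1*, the pantetheinase vanin-1 (-1.50, adjusted p = 0.00167), *Aldh3a2*, a fatty aldehyde dehydrogenase (-0.84, 0.00167), and *Cyp4a14*, a fatty acid ω-hydroxylase (-1.43, 0.0427). *Acot1*, an acyl-CoA thioesterase, missed it at -0.88 (0.0563). Of 16 other genes of fatty acid activation and β-oxidation, none passed the threshold and 10 lay lower (median -0.11), the smallest p-values belonging to *Acads* (-0.22, 0.170) and the carnitine transporter *Slc22a5* (-0.32, 0.171). Of 13 regulators, none passed, with *Pparg* at -0.92 (0.0624), and of 12 mitochondrial genes outside the pathway none passed and the median was 0.01.

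Marker means of cell types were also compared between the liver groups, without a test. The mean of 6 endothelial genes lay at 4.29 to 4.47 in WT and 3.49 to 4.04 in KO livers, without overlap. That of 10 macrophage genes lay at 4.16 to 4.55 and 3.62 to 4.39, overlapping through KO replicate 2. The mean of 8 hepatocyte genes also overlapped, at 10.88 to 10.95 in WT and 10.89 to 10.99 in KO livers. The part of these cell types in the lower oxidation genes was not tested. In bulk tissue, fewer cells of a type and less RNA per cell cannot be told apart.

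In eWAT, the members split. *Cpt1a* fell, *Ppara* and *Eci1* rose, and by sign 6 of the 10 were higher and 4 lower in KO mice, where 56.5% of all genes were higher, with a median of 0.18 against 0.03 over all genes. *Cpt1a* measured 8.20, 8.26, 8.13 and 8.25 in WT and 6.76, 7.86, 6.70 and 6.62 in KO fat. All KO arrays lay below all WT arrays and the mean fell by 57.2% (log2 fold change -1.22, standard error 0.24, adjusted p = 0.0136), with KO replicate 2 far above the other 3. Without that array the change was -1.52 (adjusted p = 6.65e-06).

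*Eci1* and *Ppara* were the members that rose in eWAT. *Eci1* measured 6.71, 6.43, 6.60 and 6.28 in WT and 7.02, 6.97, 6.90 and 7.57 in KO fat, a 1.53-fold rise without overlap (0.61, standard error 0.16, adjusted p = 0.0292). *Ppara* measured 3.11, 3.13, 3.18 and 2.89 in WT and 3.58, 3.35, 3.82 and 3.50 in KO fat, also without overlap (0.49, 0.11, 0.0205). It lay above the median of its array, 3.13 to 3.18, in 4 of 4 KO arrays but 1 of 4 WT arrays, so that the WT level was not shown to be above background and no fold is given. The 3 members past the threshold compare with 15.2% of all genes in eWAT, the 2 that rose with 4.57% and the 1 that fell with 10.7%. *Cpt1a* passed without any 1 of the 8 arrays, whereas *Ppara* did not pass without WT replicate 2 (adjusted p = 0.0556), WT replicate 4 (0.0628) or KO replicate 1 (0.0523), and *Eci1* did not without WT replicates 2, 3 and 4 (0.0848, 0.0574 and 0.0871) or KO replicate 1 (0.0558). The count was 1 without WT replicate 2, WT replicate 4 or KO replicate 1, where 5.88%, 6.73% and 8.94% of all genes passed, but 6 without KO replicate 2 (22.0%) and 5 without KO replicate 3 (13.0%).

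The 2 genes of transport across the inner membrane lay on opposite sides in eWAT. *Cpt2* was 6.71, 6.84, 6.88 and 6.67 in WT and 7.64, 7.02, 6.94 and 7.67 in KO fat, without overlap (0.54, standard error 0.17, adjusted p = 0.0643). *Slc25a20*, which feeds it, was 6.63, 6.95, 6.89 and 6.71 in WT and 6.35, 6.65, 6.14 and 6.63 in KO fat (-0.35, 0.13, 0.102), with 2 KO arrays at the level of the lowest WT array. Without KO replicate 2 both passed, *Cpt2* at 0.64 (adjusted p = 0.0254) and *Slc25a20* at -0.42 (0.0493). *Cpt2* also passed without KO replicate 3 (0.67, 0.0338).

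Among the dehydrogenases, the KO value was further from WT for the longer chains. *Acadvl* was 5.95, 6.09, 5.86 and 5.64 in WT and 6.66, 6.40, 5.97 and 6.80 in KO eWAT (0.57, standard error 0.17, adjusted p = 0.0550), and it passed without KO replicate 3, the lowest of the 4 (0.74, 0.0194). *Acadl* lay at 8.69 to 9.03 in WT and 8.97 to 9.49 in KO fat (0.31, 0.127). *Acadm* lay at 9.61 to 9.85 and 9.49 to 9.95 (0.05, interval -0.20 to 0.29). The subunits of the trifunctional protein were lower by sign, *Hadha* at -0.16 (0.313) and the dim *Hadhb* at -0.28 (0.135). *Hadhb* passed without KO replicate 2 (-0.37, 0.0269), but lay above its array's median in none of the eWAT arrays. The order by chain length was read after the values were seen and was not tested.

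**Figure D2:**
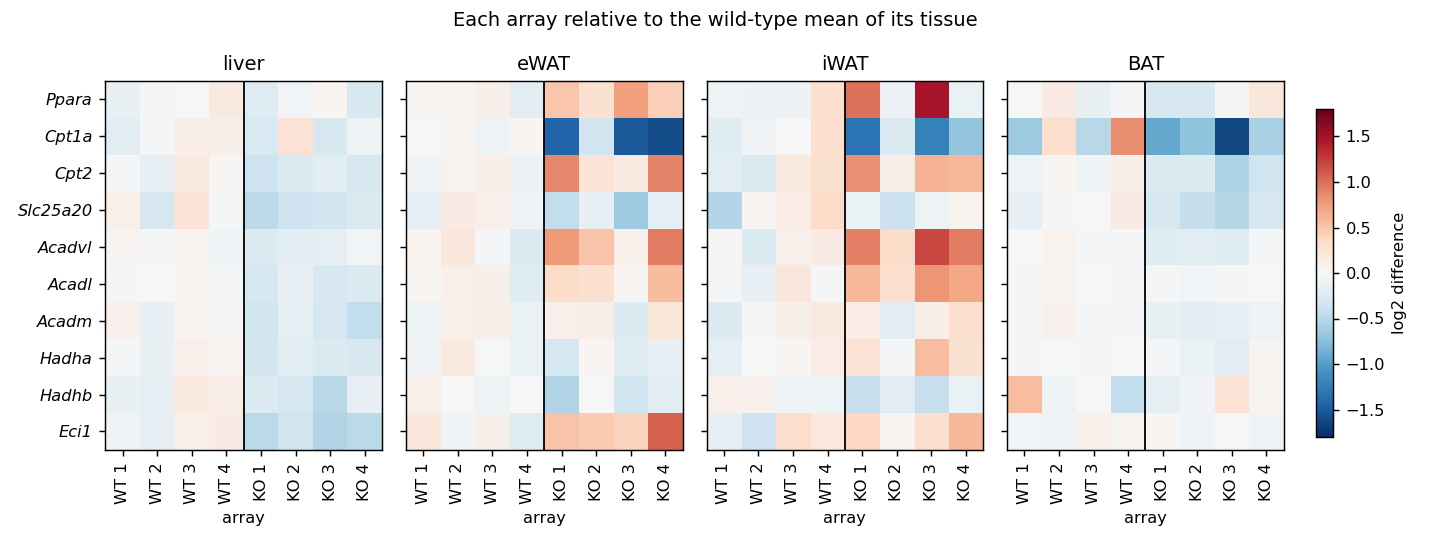
Value of each gene (rows) on each of the 32 arrays (columns, 4 WT and 4 KO mice per tissue) minus the mean of the 4 WT arrays of that tissue (colour, log2 difference, red above and blue below). The 4 KO livers are pale blue for most genes, whereas KO white fat shows *Cpt1a* in blue beside *Cpt2*, *Acadvl* and *Acadl* in red, with KO replicates 2 and 3 paler than the other KO arrays for *Cpt2* and *Acadvl* in eWAT.

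Elsewhere in the pathway, the genes that changed in eWAT all rose. Over all genes in eWAT, 4.57% rose and 10.7% fell past the threshold. Of the 16 other genes of fatty acid activation and β-oxidation, 7 rose past the threshold and none fell (median 0.35). They were *Echs1*, the short-chain enoyl-CoA hydratase (1.00, adjusted p = 0.0187), *Acadsb* (0.88, 0.0128), *Acad11* (0.75, 0.0152) and *Acad10* (0.42, 0.0462), further acyl-CoA dehydrogenases, *Etfb* and *Etfa*, the subunits that take electrons from those dehydrogenases (0.66, 0.00987 and 0.52, 0.0103), and *Crat*, the carnitine acetyltransferase (0.36, 0.0268). Of 13 regulators, 5 rose past the threshold and none fell, against the same shares of all genes. The largest rise was in *Acacb* (1.86, 0.00987), whose product makes the malonyl-CoA that inhibits carnitine palmitoyltransferase 1, followed by *Lpin1* (0.73, 0.0280), *Nrip1*, a corepressor (0.68, 0.0136), *Pparg* (0.61, 0.0203) and *Sirt3*, a mitochondrial deacetylase (0.38, 0.0308). The regulators thus include genes of opposite known effect on oxidation.

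PPARα targets outside the pathway went both ways in eWAT. *Ucp3*, a mitochondrial carrier (1.14, adjusted p = 0.00924), and *Ehhadh*, a peroxisomal enzyme (0.95, 0.0192), rose, whereas *Pdk4*, the kinase that inhibits pyruvate dehydrogenase (-1.17, 0.0316), *Plin2*, a lipid droplet coat protein (-1.06, 0.0137), and *Acot1* (-0.61, 0.0266) fell. Of 12 mitochondrial genes outside fatty acid oxidation, 3 rose, *Cox4i1* (0.68, 0.00937), *Sdha* (0.67, 0.0125) and *Hspd1* (0.40, 0.0261), and none fell. Of all genes, 4.57% rose and 10.7% fell past the threshold. Among the arrays, the mean of 8 adipocyte genes lay at 8.96 to 9.40 in WT and 9.69 to 10.03 in KO eWAT, and the macrophage mean at 8.45 to 8.65 and 5.68 to 8.10. KO replicate 2 was highest of the KO arrays both in macrophage genes and in *Cpt1a*. The part of these cell types in the members' changes was not tested.

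In iWAT, no gene of the 24646 passed the adjusted threshold (0.0% of genes, smallest adjusted p 0.221), so 0 of the 10 members did, while 5 members and 15.4% of all genes had an unadjusted p below 0.05. By sign 7 members were higher, as were 53.2% of all genes, and 3 lower, with a median of 0.29 against 0.02 over all genes. *Acadvl* measured 6.19, 5.92, 6.26 and 6.31 in WT and 7.08, 6.50, 7.37 and 7.11 in KO iWAT, without overlap (0.85, standard error 0.18, adjusted p = 0.221). *Acadl* measured 8.81, 8.69, 9.05 and 8.82 in WT and 9.43, 9.15, 9.64 and 9.54 in KO iWAT, also without overlap (0.60, 0.13, 0.221). These 2 members higher in all KO arrays compare with 4.29% of all genes.

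*Cpt1a* again lay lower in iWAT. Its values were 7.11, 7.26, 7.32 and 7.62 in WT and 6.00, 7.06, 6.11 and 6.61 in KO arrays, all KO below all WT (-0.88, standard error 0.23, adjusted p = 0.221). With the dim *Hadhb* (-0.29, 0.270), 2 members lay lower without overlap, against 3.86% of all genes. *Cpt2* was 6.98, 6.92, 7.34 and 7.45 in WT and 7.28, 7.80 and 7.78 in KO replicates 2, 3 and 4, with KO replicate 1 higher still, overlapping through KO replicate 2 (0.54, 0.18, 0.251). *Ppara* was 3.42, 3.41, 3.41 and 3.80 in WT and 4.50, 3.40, 4.99 and 3.39 in KO arrays. It lay above the median of its array in 1 of 4 WT and 2 of 4 KO arrays. KO replicates 2 and 4, low in *Ppara*, were those with B cell genes.

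The values of the members differed with and without the B cell signal. Without the 4 arrays that carried it, 2 WT and 2 KO arrays remained and 3.72% of all genes passed the threshold, as did 3 members. These were *Ppara* (1.14, standard error 0.22, adjusted p = 0.0420), *Acadvl* (0.94, 0.16, 0.0321) and *Cpt1a* (-1.42, 0.17, 0.0127). Without KO replicate 2 alone, 0.921% of genes passed, and the 3 members that did were *Acadvl* (1.02, 0.0398), *Acadl* (0.70, 0.0441) and *Cpt1a* (-1.09, 0.0427). In the 4 arrays without B cell signal, *Eci1* differed by 0.07 and *Acadm* by -0.01, against 0.32 and 0.10 with all arrays.

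None of the genes in the other lists passed in iWAT with all arrays. Of the 16 other oxidation genes, 14 lay higher (median 0.30), as did 53.2% of all genes. They were led by *Echs1* (0.72) and *Etfb* (0.69), both with an adjusted p of 0.221. Of the regulators, *Sirt3* (0.44, 0.221) and *Ppargc1b* (0.61, 0.248) had the smallest p-values, and of the PPARα targets *Ehhadh* (0.98, 0.221). *Cox4i1* (0.87) and *Sdha* (0.57) led the 12 other mitochondrial genes, both at 0.221. The macrophage mean lay at 6.31 to 7.21 in WT and 5.51 to 6.36 in KO iWAT. The mean of the 9 brown fat genes was 3.80, 3.32, 3.89 and 3.50 in WT and 4.24, 3.72, 4.43 and 4.24 in KO iWAT, with KO replicate 2 lowest of the KO arrays. None of the 9 passed with all arrays (median 0.34), *Cox8b*, a cytochrome c oxidase subunit, lying at 2.51 (0.221), *Cidea*, a lipid droplet protein, at 1.02 (0.226) and *Ucp1*, the uncoupling protein of brown fat, at -0.56 (0.420). Without KO replicate 2, *Cidea* and *Cox8b* passed, both higher in KO. The part of the macrophage and brown fat genes in the members' values was not tested.

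**Figure D3:**
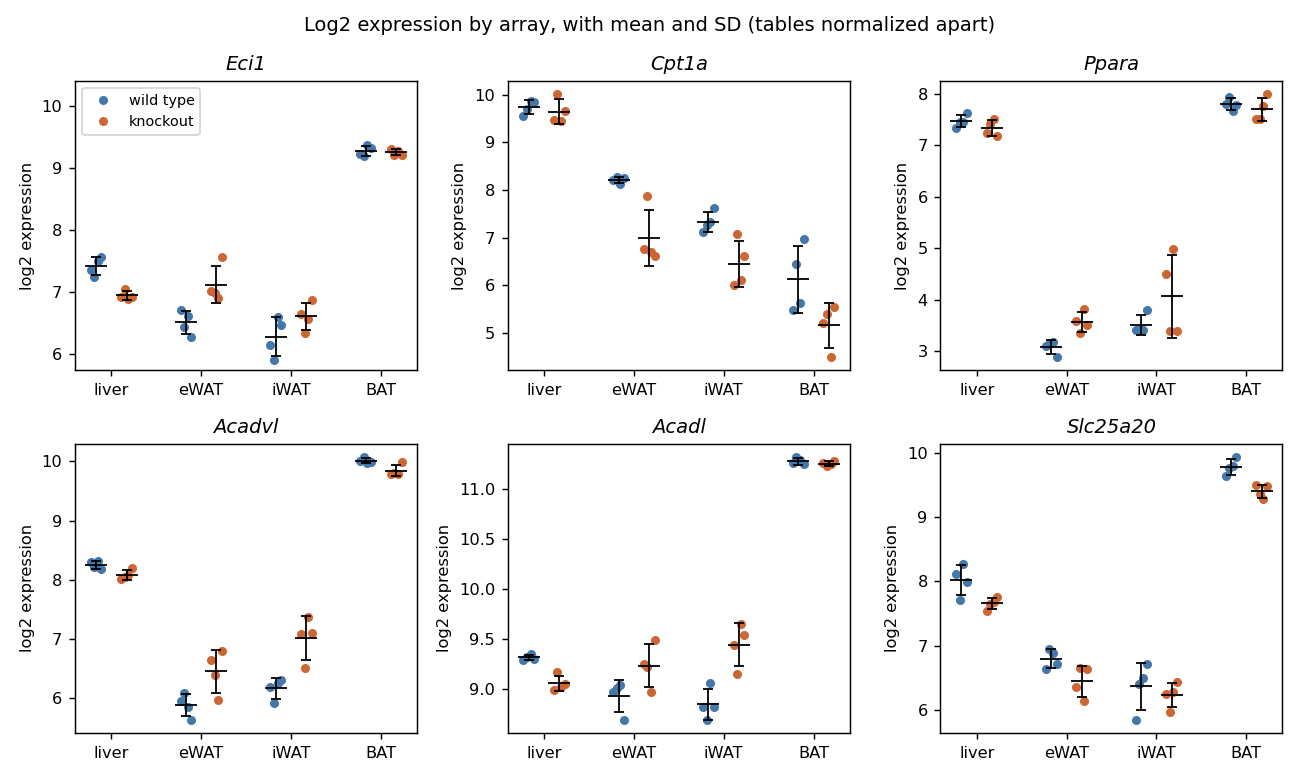
Log2 expression of 6 of the genes on each array in the 4 tissues (points, arrays of wild-type mice in blue and of knockout mice in orange; bars, mean ± SD of 4 mice), on axes that do not start at 0. *Eci1* lies lower in KO livers and higher in KO eWAT, *Cpt1a* lower in KO eWAT with 1 array apart at 7.86, and *Ppara* in KO iWAT is split between 3.39 to 3.40 and 4.50 to 4.99.

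In BAT, no member passed the threshold, against 0.0284% of all genes (7 genes), and 3 members had an unadjusted p below 0.05, all lower in KO, where 7.44% of all genes did so. By sign 9 members were lower, as were 49.2% of all genes, with a median of -0.12 against 0.003 over all genes. *Slc25a20* measured 9.65, 9.77, 9.80 and 9.94 in WT and 9.50, 9.36, 9.28 and 9.49 in KO BAT, without overlap (-0.38, standard error 0.09, adjusted p = 0.142). *Cpt2* measured 9.51, 9.65, 9.54 and 9.73 in WT and 9.35, 9.36, 9.05 and 9.26 in KO BAT, without overlap (-0.35, 0.10, 0.168). *Acadm* did not overlap either, at 11.29 to 11.40 and 11.12 to 11.23 (-0.14, 0.460), so 3 members lay lower in all KO arrays, against 3.92% of all genes.

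*Cpt1a* varied most among the WT mice in BAT. It was 5.47, 6.44, 5.63 and 6.96 in WT and 5.20, 5.40, 4.49 and 5.54 in KO arrays (-0.97, standard error 0.33, adjusted p = 0.251). WT replicate 1 lay below the highest KO array, and the other WT arrays lay above it. *Acadl*, *Eci1* and *Hadha* stayed within narrow limits, with intervals of -0.18 to 0.13, -0.20 to 0.15 and -0.25 to 0.10. *Ppara* overlapped as well (-0.10, interval -0.37 to 0.17). The 3 largest estimates in BAT were those of the carnitine shuttle.

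Of the other lists in BAT, 1 gene passed, the thioesterase *Acot2* (-1.06, adjusted p = 0.0483), where 0.0284% of all genes did. Of the 16 other oxidation genes 11 lay lower (median -0.15), as did 49.2% of all genes. *Acsl1*, which activates fatty acids to acyl-CoA, lay at -0.36 (0.142) and *Etfdh* at -0.30 (0.197). *Ppargc1a*, the coactivator of mitochondrial and oxidation genes, measured 7.26, 8.22, 6.82 and 7.32 in WT and 6.08, 6.02, 6.44 and 6.51 in KO BAT, without overlap (-1.14, standard error 0.25, adjusted p = 0.130). The mean of 9 brown fat genes, *Ppargc1a* among them, lay at 7.76 to 8.09 in WT and 7.33 to 7.52 in KO BAT. Without the 3 arrays with muscle genes 0.0% of genes passed, and *Slc25a20* was at -0.37 and *Cpt2* at -0.40.

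The direction in liver and white fat was compared by the difference of the knockout effects, tested in 1 model over the arrays of both tissues. Between eWAT and liver, 6 of the 10 members differed past the threshold, against 8.53% of all genes. For 5 the effect was higher in eWAT (2.98% of genes), by 1.08 for *Eci1* (standard error 0.18, adjusted p = 0.00370), 0.82 for *Cpt2* (0.20, 0.0192), 0.74 for *Acadvl* (0.20, 0.0272), 0.62 for *Ppara* (0.15, 0.0194), which in WT eWAT was not shown to be above background, and 0.56 for *Acadl* (0.14, 0.0214). For *Cpt1a* it was lower in eWAT, by -1.13 (0.29, 0.0253), where 5.55% of genes were. *Eci1* was the member that passed on its own in both tissues and in opposite directions.

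For the other 4 members no difference was shown between eWAT and liver. *Acadm* had a difference of 0.36 (adjusted p = 0.139) and an interval of 0.06 to 0.66 that leaves out 0, *Hadha* 0.11 (-0.15 to 0.37), *Slc25a20* 0.02 (-0.36 to 0.39) and *Hadhb* 0.02 (-0.32 to 0.35). *Slc25a20* lay lower in both tissues, at -0.37 and -0.35. When mice of 1 number and genotype were left out of both tissues, *Eci1* passed each time, with an adjusted p of at most 0.0215. The highest values for *Ppara*, *Cpt1a*, *Cpt2*, *Acadvl* and *Acadl* were 0.0862, 0.0853, 0.0746, 0.101 and 0.0743, and the count fell to 2 without WT number 1, 2 or 3 (4.67%, 3.59% and 4.08% of all genes) and to 1 without WT number 4, KO number 1 or KO number 4 (3.50%, 3.86% and 3.95%).

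Between iWAT and liver, *Acadl* alone passed (0.86, standard error 0.14, adjusted p = 0.0289), against 0.118% of all genes, and no member did without any 1 number except KO number 2, where 4 did, against 0.954% of all genes. *Acadvl* had the largest difference, 1.02 (0.20, 0.0711), and the intervals of *Cpt2* (0.38 to 1.25), *Eci1* (0.37 to 1.22) and *Hadha* (0.21 to 0.86) also lay above 0. Without the 4 iWAT arrays with B cell genes, an alternative added after seeing the data, 6 members passed, against 6.54% of genes. They were *Acadvl* (1.11, adjusted p = 0.000765), *Ppara* (1.27, 0.00429), *Acadl* (0.86, 0.00362), *Cpt2* (0.78, 0.00927), *Hadha* (0.60, 0.0318) and *Cpt1a* (-1.32, 0.00348), the last lower in iWAT.

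Against BAT, the effect in eWAT was higher for 3 members, against 5.98% of all genes past the threshold in either direction and 1.9% higher. These were *Cpt2* (0.90, standard error 0.21, adjusted p = 0.0207), *Acadvl* (0.74, 0.20, 0.0372) and *Eci1* (0.64, 0.18, 0.0458). *Cpt1a*, lower in KO mice in both depots, differed by -0.26 with an interval of -1.21 to 0.69. No member passed without WT number 1, 2 or 4 or KO number 1, 1 did without WT number 3 or KO number 4, and none passed without the BAT arrays with muscle genes, where 0.110% of all genes did (0.112 for *Cpt2*, 0.181 for *Acadvl* and 0.195 for *Eci1*). Between iWAT and BAT, 0 members and 0.0% of genes passed, with 4 members (4.91% of genes) higher in iWAT at an unadjusted p below 0.05, the largest difference being 1.01 for *Acadvl* (0.20, adjusted p = 0.126), and without KO number 2 the count was 3, against 0.426% of genes. These comparisons share their liver, eWAT, iWAT or BAT arrays with each other and are not independent.

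**Figure D4:**
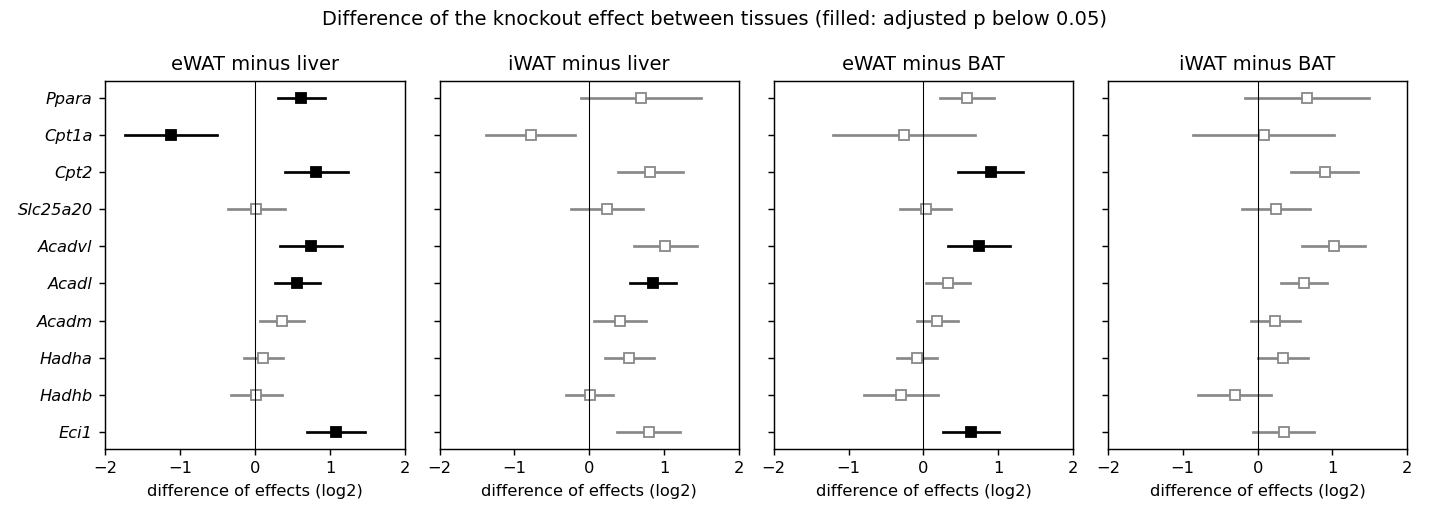
Difference of the knockout effect between pairs of tissues for each of the 10 genes (x axis, log2; squares, limma estimates; lines, 95% confidence intervals; filled, adjusted p below 0.05). Between eWAT and liver 5 genes are filled to the right of 0 and *Cpt1a* to the left, and between iWAT and BAT none is filled.

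Among themselves, the members did not vary as 1 group. Over the 32 arrays, with the mean of each tissue taken off, *Acadl* and *Acadvl* correlated with r = 0.93 and *Cpt2* and *Acadvl* with 0.87, while *Cpt1a* correlated with *Acadvl* at -0.49 and with *Slc25a20* at 0.56. *Acadm* followed the mean of the other 9 most closely (0.84) and *Cpt1a* (-0.29) and *Hadhb* (-0.19) least. The genes outside the list most like the mean of the 10 were *Nfe2l1* (0.88), *Bscl2* (0.85), *1300010F03Rik* (0.84), *Sgta* (0.83) and *Etfdh* (0.80), of which *Etfdh*, which passes electrons from β-oxidation to ubiquinone, belongs to the pathway. The arrays share tissue, genotype and cell makeup, so these values are descriptions.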

How the data were processed

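RNA of liver, eWAT, iWAT and BAT from 4 wild-type and 4 knockout mice each was labelled from 100 ng of total RNA and hybridized to Affymetrix Mouse Gene 2.1 ST arrays. Log2 values for each gene symbol, deposited by the authors as 1 table per tissue, had already been normalized within that tissue. The software, the normalization and the genome build are not given in the sources used here. At least 840 genes had been averaged over several probe sets, as marked by a fractional probe set number. None of the 10 members carried this mark. Its absence does not prove a single probe set, since an average can also be a whole number. In each tissue, 1 or 2 entries with a blank name or one turned into a number were left out.

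Samples were grouped by the labels. KO and WT were compared within each tissue with limma 3.58.1 (R 4.3.3), and the difference of the knockout effects between 2 tissues by the interaction term of 1 model over both, which took the arrays of the tissues as separate samples. The labels give the 4 mice of a group as biological replicates but do not say whether equal numbers in different tissues mark 1 animal. P-values were two-sided and adjusted by Benjamini-Hochberg over 24646 genes, with a threshold of 0.05, and the number of arrays limits the precision. The members, the other gene lists and the tests were chosen with earlier results of these data known. The genes named are all members, *Gpr146* with its neighbour, the genes of each list past the threshold or otherwise up to 4 with the smallest p, and the 5 genes most like the member mean. The macrophage gene *Adgre1* was matched by its older symbol *Emr1*. Alternatives were quantile normalization, equal array medians, a trended and robust prior, array weights, dim genes left out, a block for the replicate number, the t-test that the methods name, each array left out in turn, and arrays with B cell or muscle genes left out, by a mean more than 1 log2 above the median of the 8 arrays. For the differences between tissues, the arrays of 1 number and genotype were left out of both tissues in turn. On simulated data, the test recovered 68.7% of genes changed by 0.5 log2 at the noise of liver, 34.3% at that of eWAT, 19.4% at that of iWAT and 50.7% at that of BAT, and 100%, 95.5%, 80.6% and 98.5% of those changed by 1 log2. Most members' estimates were below that size. In each simulated tissue, 67 genes were changed by 0.5 log2, 67 by 1 log2 and 66 by 2 log2. These are far fewer than the 3758 genes that passed in the eWAT data. The share recovered depends on how many genes change, so these shares need not hold for the data. Figures were drawn with matplotlib 3.10.9.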

Additional observations from a re-analysis of the deposited data

Results flagged for a closer look

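Of 80 groups of 4 arrays examined over the 10 genes, 4 held a value far from the other 3, by a gap that chance gives in about 1 of 20 groups. *Cpt1a* in KO eWAT was 7.86 in replicate 2, against 6.62 to 6.76 in the others. *Ppara* in WT iWAT was 3.80 in replicate 4, against 3.41 to 3.42. *Acadvl* in KO BAT was 9.98 in replicate 4, against 9.79 to 9.81. *Acadm* in WT BAT was 11.40 in replicate 2, against 11.29 to 11.30.

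Of 40 differences of knockout effects tested between tissues over the members, 10 passed the threshold. Between eWAT and liver, where 8.53% of all genes passed, these were *Ppara* (0.62), *Cpt1a* (-1.13), *Cpt2* (0.82), *Acadvl* (0.74), *Acadl* (0.56) and *Eci1* (1.08). Between iWAT and liver (0.118%) it was *Acadl* (0.86), between iWAT and BAT (0.0%) none, and between eWAT and BAT (5.98%) *Cpt2* (0.90), *Acadvl* (0.74) and *Eci1* (0.64).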

How the results depend on the processing

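In this paragraph the share of all genes past the threshold in the same fit stands in brackets after each count of members. With quantile normalization 0 members passed in liver (0.633%), 6 in eWAT (15.2%) and 7 in the difference of eWAT from liver (8.66%). Array weights gave 6 in eWAT (21.5%), 4 between iWAT and liver (0.353%) and 1 between iWAT and BAT (0.0852%), and leaving out dim genes gave 5 in eWAT (31.1%) and 2 between iWAT and liver (0.292%). The methods' t-test gave 0 after adjustment in liver (0.00811%) and 0 in eWAT (0.154%), and before adjustment 8 in liver (11.8%), 6 in eWAT (27.6%), 5 in iWAT (12.8%) and 4 in BAT (11.4%). With the replicate number as a block, 0 members passed in liver (0.767%), 2 in eWAT (13.8%), 0 in iWAT (0.00406%), 0 in BAT (0.0%) and 0 between iWAT and liver (0.00406%). The deviations of same-numbered WT and KO arrays correlated with r from -0.06 to 0.11 in liver, -0.0003 to 0.16 in eWAT, -0.38 to 0.67 in iWAT and 0.01 to 0.22 in BAT. Each tissue held at least 1 pair at or below 0.1, so the numbers were not taken as pairs of WT and KO, although all 4 pairs in BAT and 3 of 4 in iWAT were positive. Arrays of equal number and genotype in 2 tissues correlated at -0.06 to 0.15 for eWAT and liver and -0.15 to 0.17 for iWAT and liver. With BAT the range was 0.02 to 0.18 for eWAT and -0.02 to 0.15 for iWAT. These values do not settle whether equal numbers mark 1 animal. Leaving out 1 array in turn gave 0 to 1 members in liver (0.166% to 1.22%), 1 to 6 in eWAT (5.88% to 22.0%), 0 to 3 in iWAT (0.0% to 0.921%) and 0 in BAT (0.0% to 0.325%). Leaving 1 number and genotype out of both tissues gave 1 to 6 between eWAT and liver (3.50% to 13.7%) and 0 to 4 between iWAT and liver (0.0% to 0.954%). It gave 0 to 4 between eWAT and BAT (0.852% to 10.8%) and 0 to 3 between iWAT and BAT (0.0% to 0.426%). Without arrays with B cell genes 3 passed in iWAT (3.72%), without those and the arrays with muscle genes 1 between iWAT and BAT (0.743%), and, chosen after seeing the data like the latter, 6 passed between iWAT and liver without B cell arrays (6.54%) and 0 between eWAT and BAT without muscle arrays (0.110%). The cause of these shifts was not tested.

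All values that changed sign lay near 0 or within their spread. Under quantile normalization *Slc25a20* in iWAT was 0.047, *Hadhb* was -0.013 between eWAT and liver and -0.046 between iWAT and liver, and *Hadha* between eWAT and BAT was 0.027. *Hadhb* was -0.0090 between eWAT and liver with array weights and -0.0026 between iWAT and liver with equal array medians. Without B cell arrays *Acadm* in iWAT was -0.014 and *Hadhb* between iWAT and liver -0.035, and without these and muscle arrays *Cpt1a* between iWAT and BAT was -0.28. Without muscle arrays *Acadl* in BAT was 0.012 and *Hadhb* -0.0068. With 1 array left out, *Acadm* in eWAT ranged from -0.010 to 0.14, *Hadhb* in BAT from -0.13 to 0.20 and *Eci1* in BAT from -0.053 to 0.0033. For the differences, 1 number and genotype was left out of both tissues. Between eWAT and liver, *Slc25a20* then ranged from -0.072 to 0.17 and *Hadhb* from -0.076 to 0.12, and between iWAT and liver *Hadhb* from -0.080 to 0.083. Between eWAT and BAT *Slc25a20* ranged from -0.052 to 0.090, and between iWAT and BAT *Cpt1a* from -0.10 to 0.25. In liver no member changed sign under any alternative run.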
